A study of Mus musculus with 18 samples.

Results

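The 39 mouse Hox genes of the Hoxa, Hoxb, Hoxc and Hoxd clusters were followed in 2 female embryonic stem (ES) cell lines with and without Kdm6a, the X-linked gene of the histone demethylase KDM6A (also called UTX). They were chosen by symbol, as every gene named Hoxa, Hoxb, Hoxc or Hoxd plus a number, and are 39 of the 24346 gene symbols in the tables: 11 in Hoxa, 10 in Hoxb, 9 in Hoxc and 9 in Hoxd. By number, 12 are anterior (1 to 4), 15 middle (5 to 9) and 12 posterior (10 to 13). The measurement was poly(A) RNA-seq in 18 libraries.

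All cells were female hybrids of a laboratory strain and Mus castaneus (cast), and all were taken without directed differentiation. Tsix-stop cells (a cross of strain-129 and cast) carry a transcriptional stop in Tsix on the strain-129 X in every group, wild-type (wt) included, so that this X becomes the inactive one on differentiation. They were collected at day 0 (D0), as ES cells grown with LIF on inactivated mouse embryonic fibroblast feeders, which were reduced on gelatin before use, and at D15, from embryoid bodies formed without LIF and later plated. At each day there were 2 wt libraries, 2 knockout (KO) libraries from 2 clones with part of Kdm6a deleted by CRISPR/Cas9 on both alleles, and 1 library labelled CRISPR control, from 1 clone that went through the treatment. The paper reports that its control clones were not edited. The labels do not tie a KO library to a clone. E8 cells (BL6 x cast) were collected at D7 and D15, with 2 wt and 2 KO libraries per day, and all KO libraries came from 1 clone lacking the Kdm6a promoter, so clone and genotype cannot be told apart. These days follow the labels; the methods name earlier days and a single wt control for the E8 RNA-seq, so the E8 days and replicates are given as labelled only. Nothing in the labels gives separate cultures for the replicates of one clone, so the p-values measure the spread between these libraries, which may in part be technical.

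Hox genes encode homeodomain transcription factors that give cells along the head-to-tail axis their positional identity. Within each cluster the genes lie in the order in which they are switched on, from the anterior to the posterior end, during elongation of the body axis. In ES cells the clusters carry Polycomb's repressive H3K27me3 mark together with active marks, and H3K27me3 is the mark that KDM6A and its autosomal relative KDM6B remove. HOX proteins bind DNA with PBX and MEIS cofactors, and retinoic acid and the CDX factors are known activators of the clusters.

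On GRCm38 (the files use the same build under the name mm10) the Hoxa genes span chr6:52155590-52260880 on the minus strand, Hoxb chr11:96194316-96368256, Hoxc chr15:102921103-103036852 and Hoxd chr2:74668310-74765142, the last 3 on the plus strand. To show what kind of promoter these genes have, the 250 bases before the start of 4 of them are given, 3 that were lower in KO cells at D15 in Tsix-stop and Hoxd1, which was not. They are RefSeq sequences on GRCm38.p6, written 5' to 3' on the gene's strand, with each CpG (CG) in capitals, since CpG density marks promoters of the Polycomb-bound kind. Hoxa10 is at chr6:52234940-52235189 (minus), Hoxb4 at chr11:96318017-96318266 (plus), Hoxd11 at chr2:74682073-74682322 (plus) and Hoxd1 at chr2:74762730-74762979 (plus, overlapping an exon of the noncoding gene Haglr). Hoxa10 and Hoxd11 each have a second start that is not shown. The windows before these second starts hold fewer CpGs, 7 for Hoxa10 and 2 for Hoxd11.
Hoxa10: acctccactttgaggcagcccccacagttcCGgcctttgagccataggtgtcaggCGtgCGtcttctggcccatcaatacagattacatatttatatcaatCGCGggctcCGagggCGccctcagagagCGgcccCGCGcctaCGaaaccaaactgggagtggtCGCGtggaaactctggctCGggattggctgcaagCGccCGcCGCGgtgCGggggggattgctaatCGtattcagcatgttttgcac
Hoxb4: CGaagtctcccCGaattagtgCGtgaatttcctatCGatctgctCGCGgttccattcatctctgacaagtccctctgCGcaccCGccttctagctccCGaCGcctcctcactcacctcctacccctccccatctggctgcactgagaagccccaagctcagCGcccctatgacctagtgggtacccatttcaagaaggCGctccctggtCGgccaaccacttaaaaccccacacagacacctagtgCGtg
Hoxd11: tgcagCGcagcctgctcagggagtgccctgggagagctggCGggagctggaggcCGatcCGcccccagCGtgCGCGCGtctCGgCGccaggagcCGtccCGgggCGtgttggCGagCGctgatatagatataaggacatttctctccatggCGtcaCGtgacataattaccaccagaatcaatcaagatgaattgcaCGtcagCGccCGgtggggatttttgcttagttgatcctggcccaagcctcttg
Hoxd1: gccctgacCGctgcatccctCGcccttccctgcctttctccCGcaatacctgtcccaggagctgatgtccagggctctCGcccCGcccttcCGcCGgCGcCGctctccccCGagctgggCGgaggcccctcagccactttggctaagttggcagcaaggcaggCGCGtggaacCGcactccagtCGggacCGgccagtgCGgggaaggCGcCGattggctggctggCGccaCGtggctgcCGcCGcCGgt
These windows hold 20, 14, 20 and 24 CpGs. Over 24 such windows of 22 Hox genes the count ran from 2 to 35 with a median of 12.5, against a median of 6 and an upper quartile of 16 over all 32851 promoters in the table, so many Hox promoters were CpG-rich and some were not. Searched on both strands, AGGTCA, the half-site of nuclear receptors such as those for retinoic acid, was in 6 of the 24 Hox windows, Hoxb4 among them, and in 14.02% of all promoters. TGATTGAT, a PBX and HOX motif, was in 2 of the 24, Hoxd11 among them, and in 0.6697% of all. A match of letters is a description and not a binding site.

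Tsix-stop libraries held 51091152 to 68796179 counts. At D0 the summed TPM (a level that accounts for gene length and library size) of 10 pluripotency markers was between 13533 and 16157, and at D15 it was still 9119 to 15575, so this sum stayed high in the D15 samples. Single markers fell: in wt 4 of the 10 were called lower at D15 than at D0 and none higher (edgeR, criteria below), against 13.6% and 24.2% of all genes. Zfp42 went from 1259 and 1051 to 322 and 333 TPM in wt. Kdm6a itself was measured at 54.1 and 85.7 TPM in wt and 55.6 and 21.2 TPM in KO at D0, and at 64.3 and 48.9 against 41.6 and 12.8 TPM at D15, which did not pass the test (edgeR, adjusted p = 0.303 and 0.189); the counts include exons outside the deletion and do not check it. In E8 it was 46.7 to 47.8 TPM in wt and at most 0.0319 TPM in KO. The CRISPR control libraries (53.7 and 43.5 TPM) carry a CRISPR control label while their deposited tables are named as KO, so they are called the libraries labelled CRISPR control and were kept out of the main tests.

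The 39 genes together were a small part of the RNA. In wt ES cells they summed to 46.4 and 34.8 TPM, and Hoxc13 alone, the last gene of its cluster, gave 19.5 and 12.8 TPM of this. In wt embryoid bodies at D15 they summed to 77.6 and 73.9 TPM, and the number of genes at 1 TPM or more went from 10 and 8 at D0 to 23 and 24. No single gene led at D15: Hoxb4, Hoxc10, Hoxd9, Hoxa10 and Hoxd13 were among the highest, with means between 4.04 and 4.92 TPM, and neighbours in this order differed by less than or about as much as their 2 libraries did. In bulk RNA, fewer cells expressing a gene and less RNA per cell cannot be told apart, here and for every level given here.

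**Figure D1:**
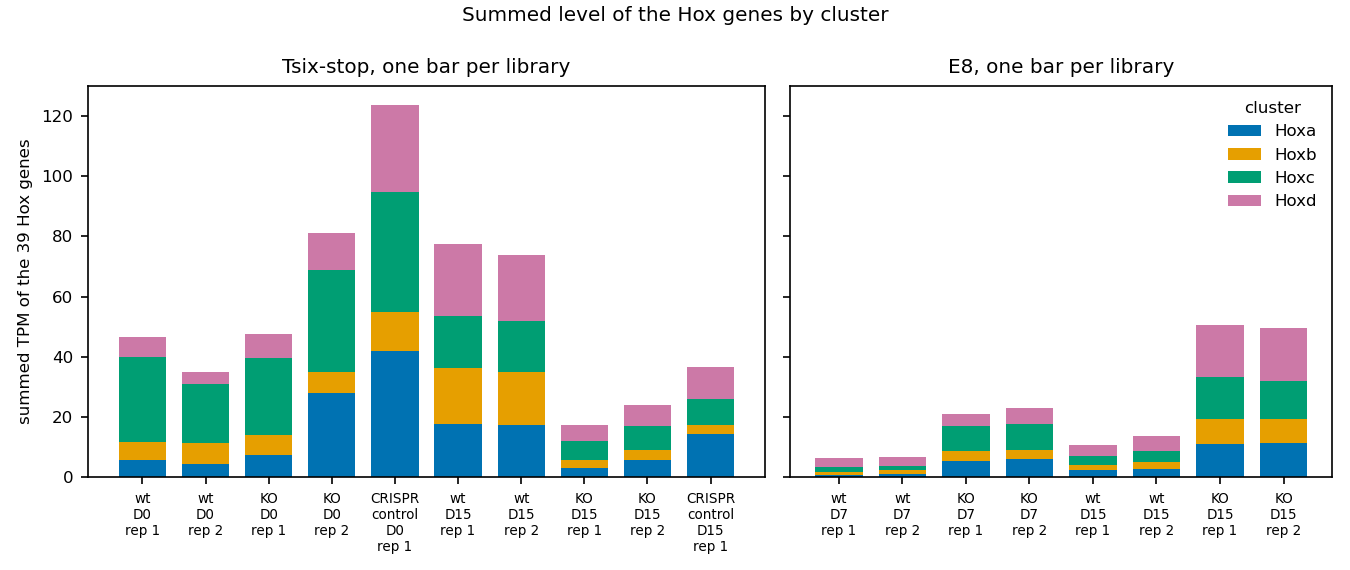
Summed TPM of the Hox genes in each of the 18 libraries, stacked by cluster, Tsix-stop and E8 in separate panels. Tsix-stop KO libraries at D15 reach 17.5 and 23.9 TPM against 77.6 and 73.9 in wt, while E8 KO libraries at D15 reach 50.6 and 49.5 against 10.6 and 13.8.

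From D0 to D15 in wt Tsix-stop cells, anterior Hoxb genes rose from almost nothing and Hoxc12 and Hoxc13 fell. Hoxb2, an anterior gene of the hindbrain and neck region, was at 0.0579 and 0.0172 TPM at D0 and at 4.16 and 3.78 TPM at D15. Its neighbour Hoxb3 went from 0.0119 and 0.0424 TPM (1 and 3 counts) to 2.61 and 2.19 TPM (182 and 137 counts), at least 54.8-fold higher when D0 is set at 3 counts per library. Hoxc13, known for its part in hair and nail formation, went the other way, from 19.5 and 12.8 to 4.11 and 3.56 TPM. None of the 3 genes had overlapping days. How often this held over all genes was not counted for this comparison.

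Of the 9 Hox genes that passed the filter on low counts (2.5 CPM, counts scaled to library size, in at least 2 of the 8 wt and KO libraries), 5 rose in wt (Hoxb2, Hoxb3, Hoxd11, Hoxa10 and Hoxb4, log2 changes of 6.42, 6.27, 4.14, 2.44 and 2.12) and Hoxc13 fell by 2.25 on the log2 scale (called at an edgeR adjusted p of at most 0.1 with at least a 2-fold change). Over all 13121 genes tested, 24.2% were called higher and 13.6% lower. Because 6 of the 9 (Hoxa10, Hoxb2, Hoxb3, Hoxb4, Hoxd11 and Hoxd13) passed the filter only through the wt D15 libraries, they had to be high there, and the count over these 9 is no support for a rise. Without either wt D15 library 2 were called. With no filter all 39 could be tested, and 24 were higher and 3 lower (Hoxa7, Hoxc12 and Hoxc13), against 23.6% and 14.1% of 20483 genes; the median log2 change was 2.22, or 2.04 with the 9 genes that had a group at or under 3 counts set at their bounds. Hoxc12, next to Hoxc13, went from 4.07 and 4.08 TPM at D0 to 0.177 and 0.198 TPM, at least 24.4-fold lower.

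**Figure D2:**
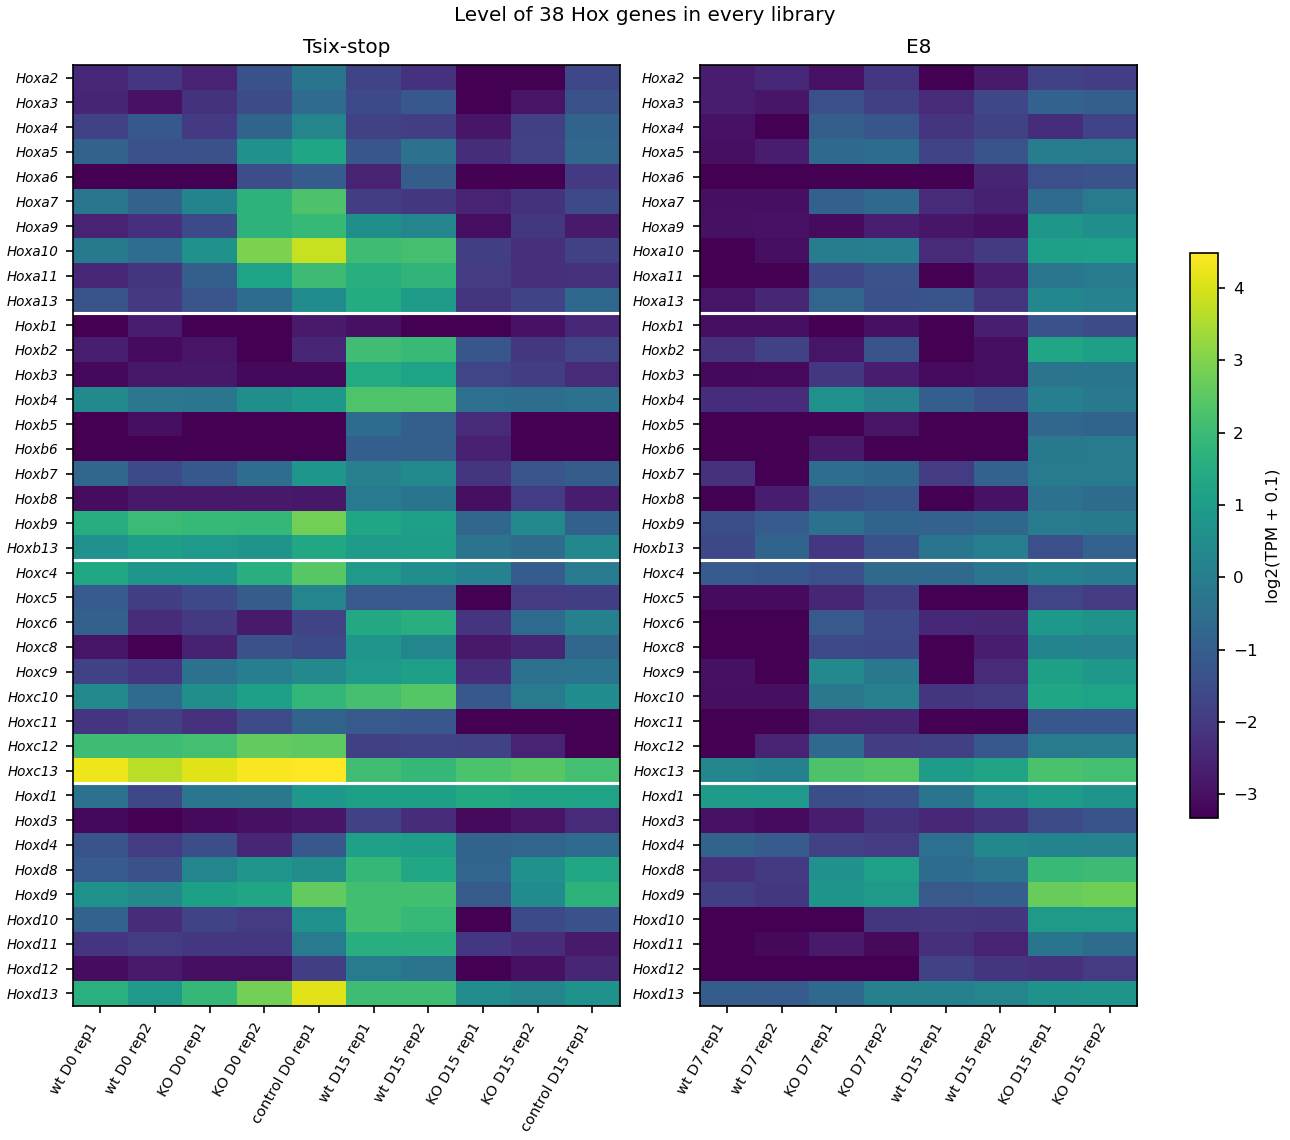
Level of each of 38 Hox genes (rows, in cluster order) in each of the 18 libraries (columns, grouped by line, genotype and day), coloured by log2(TPM + 0.1). Wt Tsix-stop D15 columns are filled along all 4 clusters and the KO D15 columns beside them are not, whereas in E8 the KO columns are the fuller ones.

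At D15 Tsix-stop KO embryoid bodies had less Hox RNA than wt in all 4 clusters. The 39 genes summed to 17.5 and 23.9 TPM in KO, below both wt libraries (77.6 and 73.9 TPM), and 4 and 7 genes reached 1 TPM, where wt had 23 and 24. The mean sum per cluster was 4.40 ± 1.96 TPM in KO and 17.5 ± 0.295 in wt for Hoxa, 2.92 ± 0.377 and 18.1 ± 0.816 for Hoxb, 7.30 ± 1.13 and 17.1 ± 0.0427 for Hoxc, and 6.08 ± 1.08 and 23.1 ± 1.55 for Hoxd (SD, n = 2 each). An exact permutation test of 2 libraries against 2 cannot give a p below 0.33, so no test of these sums is given.

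In the Hoxa cluster the middle gene Hoxa9 and the posterior genes Hoxa10 to Hoxa13 were low in KO. Hoxa10, a gene of the lumbar region and the uterus, was at 4.03 and 4.41 TPM in wt and at 0.175 and 0.108 TPM in KO at D15 (216 and 212 against 9 and 5 counts). Hoxa9, known from leukaemia as well as from axial patterning, was at 1.37 and 1.06 TPM in wt and at 0.0228 and 0.139 TPM in KO. The KO values lay far below the wt values for both. Hoxa10 fell by 4.86 ± 0.81 on the log2 scale (SE; edgeR quasi-likelihood test, Benjamini-Hochberg adjusted p = 0.00309).

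In the Hoxb cluster the anterior genes that appeared at D15 in wt were nearly absent in KO. Hoxb2 was at 4.16 and 3.78 TPM in wt and at 0.328 and 0.142 TPM in KO. Hoxb3 was at 2.61 and 2.19 TPM in wt and at 0.210 and 0.166 TPM in KO. Hoxb4, a gene used to expand blood stem cells, was at 4.94 and 4.90 TPM in wt and at 0.620 and 0.606 TPM in KO. None of the 3 overlapped between genotypes. Their log2 changes were -4.04 ± 0.54, -3.65 ± 0.45 and -3.00 ± 0.42 (edgeR adjusted p = 0.00128, 0.000847 and 0.00155). Hoxb9, of the trunk, stood at 2.37 and 2.01 TPM in wt and 0.494 and 1.18 TPM in KO, and fell by 1.40 ± 0.40 on the log2 scale (adjusted p = 0.0287). Hoxb13, a gene of the tail bud and prostate that lies far from the rest of its cluster, was at 1.82 and 1.94 TPM in wt and at 0.692 and 0.576 TPM in KO; it did not pass the filter.

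Hoxc13 differed from the other genes of its cluster. It was at 4.11 and 3.56 TPM in wt and at 4.71 and 5.37 TPM in KO at D15, the highest Hox gene of both KO libraries, and did not pass the test (0.39 ± 0.27, adjusted p = 0.281). Hoxc6, a middle gene of the thorax, was at 2.53 and 2.91 TPM in wt and at 0.132 and 0.557 TPM in KO. Hoxc10 was at 4.44 and 5.30 TPM in wt and at 0.3333 and 0.814 TPM in KO, and Hoxc4 at 1.73 and 1.32 against 0.991 and 0.385 TPM. For these 3 both KO libraries were below both wt libraries, but they did not pass the filter on low counts. Hoxc8 (1.59 and 1.10 TPM in wt) was at or under 3 counts in each KO library, at least 18.9-fold lower.

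In the Hoxd cluster the posterior genes, which pattern the limb and the genital bud, were low in KO. Hoxd11 was at 2.90 and 2.86 TPM in wt and at 0.136 and 0.101 TPM in KO, and fell by 4.57 ± 0.38 on the log2 scale (adjusted p = 0.000214). Hoxd13 was at 4.05 and 4.02 TPM in wt and at 1.31 and 1.08 TPM in KO, and fell by 1.75 ± 0.43 on the log2 scale (adjusted p = 0.0154). Hoxd9 was at 4.25 and 4.20 TPM in wt and at 0.357 and 1.26 TPM in KO, and Hoxd10 at 4.26 and 3.63 against 0 and 0.233 TPM; both were below the filter. At the anterior end Hoxd1 was at 2.06 and 2.04 TPM in wt and at 2.56 and 2.16 TPM in KO, so both KO libraries were above both wt libraries, by little.

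Of the 9 genes tested at D15, 7 were lower in KO and none higher, against 11.1% and 3.83% of the 13121 genes tested; since 6 of the 7 entered through wt D15, this share cannot be read against that background. With no filter, 29 of the 39 were called lower and none higher, against 10.6% and 4.52% of 20483 genes. The 29 were 6 of 11 in Hoxa, 9 of 10 in Hoxb, 6 of 9 in Hoxc and 8 of 9 in Hoxd, or 7 of 12 anterior, 12 of 15 middle and 10 of 12 posterior genes; whether these shares differ was not tested. The median log2 change was -2.93, or -2.10 with 8 genes set at their bounds, where all genes had a median of 0.01. Among the 33 genes with enough counts in a library (at least 10), both KO libraries were below both wt libraries for 31 and above them for 2 (Hoxc13 and Hoxd1), against 38.9% and 33.4% of 16813 genes. Many of the 33 met this minimum through wt alone, such as Hoxd11 (200 and 177 counts in wt, 9 and 6 in KO). This favours lower values in KO, so the 31 cannot be read against that background. The call depends on the wt libraries: with the libraries labelled CRISPR control in place of wt 0 of the tested genes were called, and with them added to wt 2 were. Leaving out the first or the second wt D15 library left 2 and 3 calls, as fewer Hox genes then passed the filter.

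**Figure D3:**
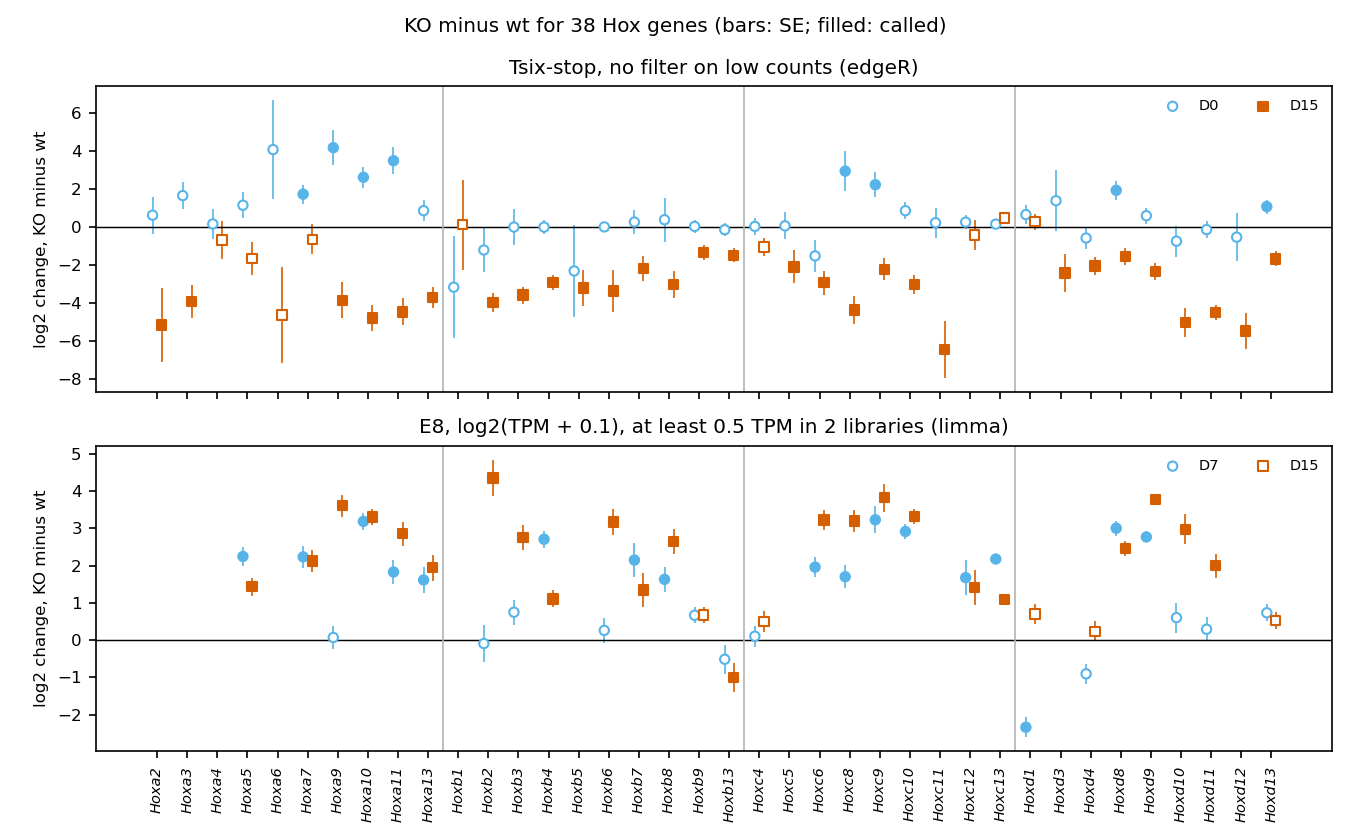
Log2 change, KO minus wt, with its SE for each of 38 Hox genes in cluster order, at D0 and D15 in Tsix-stop cells (edgeR, no filter) and at D7 and D15 in E8 cells (limma, 0.5 TPM filter); filled points passed the test with at least a 2-fold change. At D15 the Tsix-stop points lie below 0 for 29 called genes, whereas at D15 22 E8 points are called above 0 and 1, Hoxb13, below; values of genes near 0 in one group depend on the fit's prior count.

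At D0, before differentiation, Hoxa genes were higher in KO, and mainly in one of the 2 KO libraries. Hoxa10 was at 0.788 and 0.587 TPM in wt and at 1.48 and 7.54 TPM in KO. Hoxa9 was at 0.0724 and 0.108 TPM in wt and at 0.235 and 3.21 TPM in KO. Both KO libraries were above both wt libraries for the 2 genes, and the second was far above the first. The Hoxa sum was 7.27 TPM in the first and 27.95 TPM in the second KO library, against 5.58 and 4.28 TPM in wt. In that second library the axial progenitor genes (Cdx, T and others that mark cells of the growing tail end) also summed to 165.8 TPM, against 45.4 in the first KO library and 29.1 and 35.8 in wt. The D0 library labelled CRISPR control had a higher Hoxa sum (42.0 TPM) with 51.3 TPM of the axial progenitor genes. The part of these genes in the result was not tested.

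Of the 9 genes tested at D0, Hoxa10 was called higher (2.57 ± 0.66, edgeR adjusted p = 0.0384) and none lower, against 3.11% and 5.01% of all genes. Hoxd13 (2.99 and 1.76 TPM in wt, 3.55 and 7.15 TPM in KO) did not pass (log2 change of 1.03, adjusted p = 0.133). Without a filter 8 of 39 were called higher (Hoxa7, Hoxa9, Hoxa10, Hoxa11, Hoxc8, Hoxc9, Hoxd8 and Hoxd13) and none lower, against 3.17% and 5.31%. Without the second KO library 0 of the tested genes were called, without the first 3 were, and without either wt D0 library 0 were. Hoxa10 was thus called higher in KO at D0 and lower at D15, but the D0 call depends on the libraries: with those labelled CRISPR control added to wt its D0 change was -0.24, with them in place of wt it was -1.68, neither called, and with only the D0 libraries fitted 0 genes were called. Fibroblast markers, which feeder cells would also carry, summed to 33.1 and 29.1 TPM in wt and 20.2 and 19.6 TPM in KO at D0; the part of feeder RNA in the D0 levels was not tested.

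Between D0 and D15 KO cells gained little Hox RNA and lost some that ES cells had. Hoxa10 went from 1.48 and 7.54 to 0.175 and 0.108 TPM, and Hoxb9 from 3.64 and 3.57 to 0.494 and 1.18 TPM. Of the 9 genes tested Hoxb2 and Hoxb3 were called higher at D15 than at D0 in KO (3.62 and 2.65 on the log2 scale) and Hoxa10, Hoxb9, Hoxd13 and Hoxc13 lower (-4.99, -2.17, -2.20 and -1.97), against 20% and 7.66% of all genes. Hoxb2 and Hoxb3, at 0.328 and 0.142 TPM and at 0.210 and 0.166 TPM, were still far under their wt levels. With no filter 4 of 39 were higher (Hoxb2, Hoxb3, Hoxd1 and Hoxd4) and 18 lower, against 19.6% and 8.08%. Hoxc12 was lost in KO as in wt, from 4.34 and 5.98 to 0.185 and 0.0685 TPM, at least 27.3-fold.

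The difference between the KO effect at D15 and at D0 was itself tested, as the interaction of genotype and day. It was below 0 for Hoxa10 (-7.43 ± 1.05), Hoxd11 (-4.40 ± 0.59), Hoxb3 (-3.62 ± 1.15), Hoxb4 (-2.96 ± 0.58), Hoxd13 (-2.78 ± 0.59) and Hoxb9 (-1.40 ± 0.54), with edgeR adjusted p-values of 0.00299, 0.00244, 0.0521, 0.01, 0.0131 and 0.095. Over all genes 10.5% were called below 0 and 6.62% above. Of the 6, all but Hoxb9 passed the filter only through the wt D15 libraries, and being high there lowers the interaction, so the count of 6 of 9 cannot be read against that background. With the libraries labelled CRISPR control added to wt 0 genes were called, and without either wt D15 library 2 were. Hoxb2 did not pass (-2.80 ± 1.77, adjusted p = 0.276), and neither did Hoxc13 (0.28 ± 0.37, adjusted p = 0.619). With no filter 24 of 39 were called below 0 and none above, 9 of 11 in Hoxa, 5 of 10 in Hoxb, 4 of 9 in Hoxc and 6 of 9 in Hoxd, against 8.3% and 6.59%.

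The library labelled CRISPR control did not behave like wt for Hox genes. At D0 it held the most Hox RNA of the 10 Tsix-stop libraries, 123.8 TPM, with Hoxa10 at 13.9 and Hoxd13 at 17.2 TPM, each above every wt and KO library. There is 1 such library per day, so there is no replicate check and no test. Of the 30 genes with enough counts, 22 were at least 2-fold above the wt mean at D0 and 0 at least 2-fold below, with a median log2 difference of 1.61, against 5.26% and 7.34% of all genes; in Hoxa it was 10 of 10. At D15 it summed to 36.4 TPM, and 22 of 35 genes were at least 2-fold below the wt mean and 1 above, against 10.8% and 3.23%. Genes could reach the minimum of 10 counts through this library or through wt alone, which favours a difference in that direction. Hoxb2 was at 0.210 TPM and Hoxb4 at 0.675 TPM there, close to the KO values, whereas Hoxd9 (3.21 TPM) and Hoxd8 (2.45 TPM) were at or near the wt range.

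Reads that cover a single-nucleotide difference between strain-129 and cast gave the allele of origin for 19 of the 39 genes with at least 20 such reads over all libraries (4 in Hoxa, 7 in Hoxb, 2 in Hoxc and 6 in Hoxd). In KO libraries the Hoxa cluster gave no cast read at all. At D0 there were 0 of 31 and 0 of 158 cast reads, which allows a cast share of up to 9.68% and 1.90%. At D15 there were 0 of 6 and 0 of 4, which allows up to 50% and 75% and so says little. In wt at D0 cast reads were 1 of 7 and 3 of 9, too few for a same-day comparison. In wt at D15 the strain-129 share was 59.1% (39 of 66 reads, 95% Wilson interval 47.0 to 70.1) and 53.2% (41 of 77, 42.2 to 64.0), and in the library labelled CRISPR control at D0 it was 52.2% (118 of 226, 45.7 to 58.6). These intervals cover counting error only. In the other clusters cast reads were present in KO: at D0 the KO strain-129 share was 75.6% and 79.2% in Hoxb, 40.7% and 56.3% in Hoxc, and 54.5% and 42.7% in Hoxd. In wt at D0 the share was 73.2% and 71.9% in Hoxb, 66% and 53.6% in Hoxc, and 45.5% and 47.8% in Hoxd.

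The loss of cast reads was wider than Hoxa. Over 78 genes within 15 Mb of the cluster the median strain-129 share was 99.8%, 99.9%, 100% and 99.95% in the 4 KO libraries and 49.5% and 51.2% in those labelled CRISPR control. In wt it was 55.05% and 57.2% at D0 and 63.7% and 63.2% at D15. Along chromosome 6, in a stretch from 6 Mb before to 41 Mb after the cluster whose ends were set after seeing the data, 153 of 161 genes were at 95% or more strain-129 in KO and 2 in wt, and over the 302 genes outside it 8 and 6 were. The wt median was shifted in this stretch as well, at 63.4% inside and 47.1% outside it, against 51.4% and 52.7% in the libraries labelled CRISPR control. Over the same 15 Mb windows around the other 3 clusters the medians lay between 45.4% and 53.1% in every library. The Hoxa reads of KO libraries with a strain-129 or cast base were thus strain-129 reads at D0 and, with few reads, at D15. The part of this stretch in the levels of Hoxa or of the other clusters was not tested. In E8 the BL6 share over the Hoxa window was alike in all 8 libraries (18.1% to 20.7%), as it was for the other clusters; the allele columns there were scaled separately, so only this likeness and not the level can be read.

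**Figure D4:**
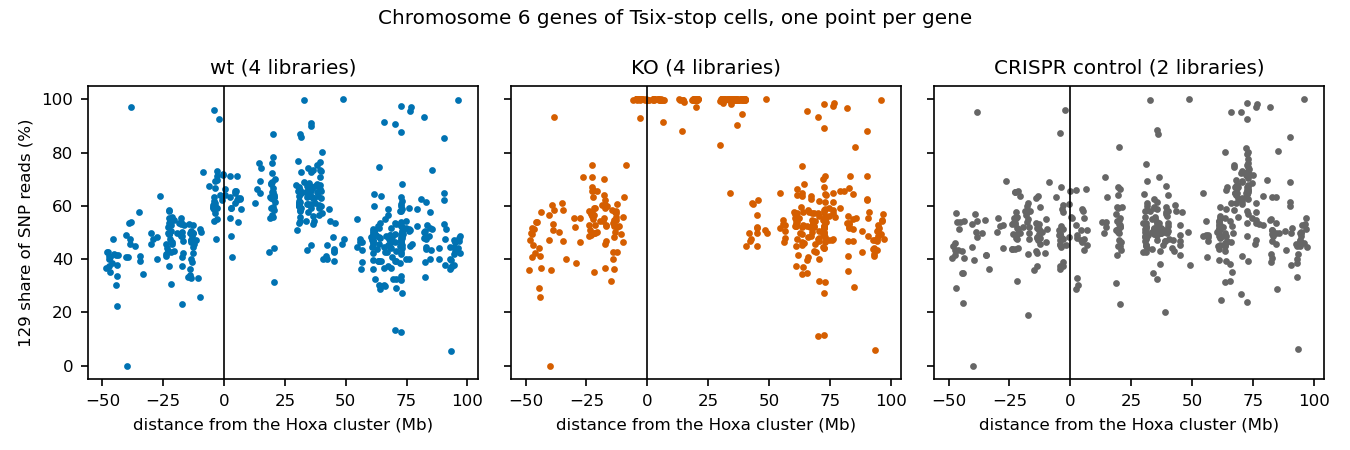
Share of strain-129 reads of single genes on chromosome 6 against their distance from the Hoxa cluster in Mb, for Tsix-stop wt, KO and the libraries labelled CRISPR control. KO genes lie at or near 100% from about 6 Mb before the cluster to 41 Mb beyond it, where wt and CRISPR control genes scatter around medians of 63.4% and 51.4%.

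In E8 cells the genotypes differed in the opposite direction: Hox RNA was low in wt and higher in KO at both days. The 39 genes summed to 6.29 and 6.55 TPM in wt and 20.9 and 23.0 TPM in KO at D7, and to 10.6 and 13.8 TPM in wt and 50.6 and 49.5 TPM in KO at D15. Genes at 1 TPM or more numbered 2 and 1 in wt and 6 and 5 in KO at D7, and 2 and 5 in wt and 16 and 14 in KO at D15. Only 4 genes passed the filter (2.5 TPM in at least 2 of 8 libraries), and all 4 did so through KO libraries alone, so that their being higher in KO is in part given by the filter.

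Hoxd9, a middle gene of Hoxd, was the highest Hox gene in E8 KO at D15, followed by Hoxc13 and by Hoxd8, the neighbour of Hoxd9. Hoxd9 was at 0.174 and 0.139 TPM in wt and 1.53 and 1.76 TPM in KO at D7, and at 0.356 and 0.402 against 6.23 and 6.68 TPM at D15. Hoxd8 was at 0.112 and 0.149 against 1.45 and 2.08 TPM at D7, and at 0.572 and 0.690 against 3.83 and 3.94 TPM at D15. Hoxc13 was at 1.09 and 0.983 against 4.80 and 5.26 TPM at D7, and at 1.84 and 2.23 against 4.59 and 4.28 TPM at D15. No KO value of these 3 overlapped with wt. The share of all genes without overlap was not counted for E8. In Tsix-stop at D15, also with 2 libraries a group, 38.9% did not overlap with KO lower and 33.4% with KO higher.

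On the log2(TPM + 1) scale, which understates changes of low genes, all 4 were called higher in KO at D7 (Hoxc13 1.57 ± 0.09, Hoxd8 1.28 ± 0.12, Hoxd9 1.19 ± 0.08 among them, SE; limma adjusted p = 1.53e-06, 2.4e-05 and 4.77e-06), against 11.4% of the 12452 genes tested called higher and 6.18% lower. At D15 Hoxd9 (2.43 ± 0.08) and Hoxd8 (1.58 ± 0.12) were called (adjusted p = 2.41e-07 and 1.2e-05), against 7.67% higher and 3.08% lower of all genes, while Hoxc13 had a log2 difference of 0.84, under the 2-fold minimum. The KO effect on Hoxd9 was larger at D15 than at D7 (interaction 1.24 ± 0.11, adjusted p = 9.77e-05), with 3.89% of genes called above 0 and 3.36% below, and no other of the 4 was called for it. Hoxd9 was also the 1 called gene between days in KO (1.5 on the log2 scale, against 3.41% higher and 2.7% lower of all genes), and in wt 0 of the 4 were called, against 0.586% higher and 0.819% lower of all genes. Hoxd8 and Hoxd9 passed the filter only through the KO D15 libraries, which favours a KO effect that is larger at D15 and a rise over days in KO. Without either KO D15 library they did not pass it, and 0 genes were called at D15, for the interaction and between days in KO.

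At a lower filter (0.5 TPM in at least 2 libraries, with log2(TPM + 0.1), both chosen after seeing the data) 29 genes could be tested. Then 17 were called higher and 1 lower in KO at D7, against 13.8% and 10.9% of 14983 genes, and 23 higher and 1 lower at D15, against 11.6% and 5.25%. These counts are in large part given by the filter and cannot be read against the background: 21 of the 29 genes passed it only through KO libraries, 13 of them only through those of D15, and 20 of the 21 were called higher at D15. Of the 8 that passed through wt libraries alone, 3 were called higher at D15. Middle genes made up 9 of the 17 and 11 of the 23, posterior genes 6 and 8, and anterior genes 2 and 4. Fewer anterior than middle or posterior genes passed the filter, so this split cannot be read as a difference between positions. The anterior Hoxb2 appeared late: it was at 0.116 and 0.185 TPM in wt and 0.0345 and 0.302 TPM in KO at D7, and at 0 and 0.0255 TPM in wt and 2.36 and 2.02 TPM in KO at D15. Hoxa9 likewise was under 0.1 TPM in every library but the KO D15 ones (1.65 and 1.39 TPM). Hoxa10, Hoxc9 and Hoxa5 were already up at D7: Hoxa10 was at 0.878 and 0.935 TPM in KO at D7 and 2.03 and 2.12 TPM at D15, against at most 0.148 TPM in wt. Hoxc9 was at 1.17 and 0.782 TPM in KO at D7 and 2.06 and 1.70 TPM at D15, against at most 0.0960 TPM in wt. Hoxb4 was highest at D7, at 1.39 and 1.03 TPM in KO against 0.104 and 0.0927 TPM in wt, and at 0.923 and 0.794 against 0.404 and 0.292 TPM at D15.

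Exceptions in E8 were Hoxd1 and Hoxb13. Hoxd1 was at 1.89 and 1.74 TPM in wt and at 0.267 and 0.292 TPM in KO at D7, the 1 gene called lower there (-2.34), and at 0.712 and 1.40 against 1.86 and 1.54 TPM at D15. Hoxb13 was at 0.711 and 0.918 TPM in wt and at 0.273 and 0.450 TPM in KO at D15, the 1 gene called lower at that day (-1.0). Between days 8 of the 29 were called higher and 1 lower in wt, against 1.62% and 2.2% of all genes, and 18 higher and none lower in KO, against 8.2% and 3.61%; a rise in KO is favoured by the entry of genes through KO D15. Within this fit the interaction of KO and day was above 0 for 12 genes and below 0 for 2, Hoxb4 and Hoxc13. It was highest for Hoxb2, Hoxa9 and Hoxd1 (4.44, 3.54 and 3.03), and for Hoxd1 the KO difference went from -2.34 at D7 to 0.70 at D15, which was not called. The same filter bears on these counts, against 8.65% and 4.5% of all genes.

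Both lines were sampled at D15, though in separately normalised tables, and share no libraries. Of 38 Hox genes at 0.1 TPM or more in a library of each line, 31 (81.6%) were lower in both KO libraries than in both wt libraries of Tsix-stop and higher in both KO libraries than in both wt libraries of E8. Over all 16838 such genes it was 25%. Hoxb2 was at 4.16 and 3.78 TPM in Tsix-stop wt and at 2.36 and 2.02 TPM in E8 KO, while Tsix-stop KO and E8 wt were at 0.328 and 0.142 and at 0 and 0.0255 TPM. Line, clone, the kind of deletion and the state of the cells differ together here and cannot be told apart, and the difference between lines was not tested.

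Markers of some differentiated cells moved with the Hox genes in both lines and others did not. In Tsix-stop at D15, 13 fibroblast and mesenchyme markers summed to 3196 and 2850 TPM in wt and to 239.5 and 301.9 TPM in KO, with 12 of 13 called lower (Col1a1 -3.46, Dcn -5.61), and 7 visceral endoderm markers to 613 and 704 against 45.5 and 22.9 TPM, with 6 of 7 called lower (Ttr -5.28, Afp -4.85). All 6 cardiac muscle markers tested were lower, and of 10 pluripotency markers 3 were higher (Dppa4 1.08, Zfp42 1.03, Sox2 1.02). Over all genes 11.1% were called lower and 3.83% higher in this comparison. The library labelled CRISPR control was low as well at D15, with 173.8 TPM of fibroblast and 18.4 TPM of visceral endoderm markers. In E8 the fibroblast sum was 33.1 to 47.6 TPM in wt and 107 to 127 TPM in KO, and the visceral endoderm sum 6.95 to 11.4 in wt against 1105 and 1102 TPM (D7) and 235.3 and 235.2 TPM (D15) in KO, with 7 of 7 called higher at both days. Of 10 fibroblast markers tested in E8, 8 were called higher and 1 lower at D7, and 9 and 1 at D15. Over all genes 11.4% were called higher and 6.18% lower at D7, and 7.67% and 3.08% at D15. The sums of other lists went differently, though a single gene made up most of the mesoderm and of the neural sum. Cardiac markers in E8 were at 28.4 and 25.9 TPM in wt and 11.7 and 12.3 TPM in KO at D7, and at 16.7 and 13.9 against 16.6 and 18.2 TPM at D15. Paraxial and limb mesoderm markers were at 36.4 and 38.9 against 45.2 and 51.5 TPM in Tsix-stop at D15, and at 85.2 and 86.3 against 30.02 and 33.9 TPM in E8 at D15. Most of this was Tcf15, at 15.2 and 17.7 against 39.1 and 42.2 TPM in Tsix-stop and 82.5 and 83.5 against 23.1 and 27.1 TPM in E8. Tbx4 moved with the Hox genes, at 11.6 and 11.8 against 3.48 and 4.69 TPM in Tsix-stop and 1.16 and 1.24 against 3.21 and 2.93 TPM in E8. Neural markers were at 56.6 and 57.8 against 130.4 and 105.6 TPM in Tsix-stop at D15, and at 29.4 and 33.6 against 23.1 and 22.8 TPM in E8 at D15. In Tsix-stop KO, Tubb3 gave 125.6 and 91.3 TPM of this, against 24.1 and 27.4 TPM in wt. Nes moved with the Hox genes, at 31.3 and 29.7 against 4.29 and 13.5 TPM in Tsix-stop and 1.43 and 1.63 against 5.91 and 5.56 TPM in E8. No fibroblast marker was at 0 in a Tsix-stop D15 library. The part of cell makeup in the Hox differences was not tested.

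**Figure D5:**
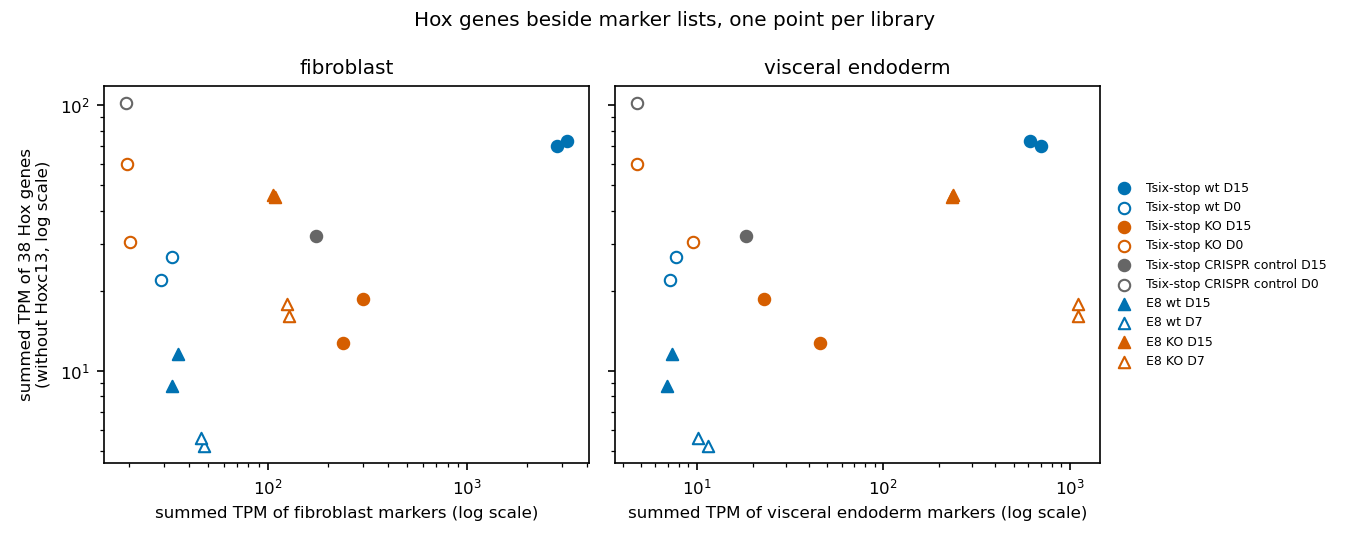
Summed TPM of 38 Hox genes (without Hoxc13) against the summed TPM of fibroblast markers and of visceral endoderm markers in each library, on log axes, with line, genotype and day marked. Wt Tsix-stop D15 libraries lie at the upper right of both panels, and E8 KO libraries lie above E8 wt in both sums.

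Genes that work with or on the clusters were read from lists. Over all genes, 11.1% were lower and 3.83% higher in Tsix-stop KO at D15, 11.4% higher and 6.18% lower in E8 KO at D7, and 7.67% higher and 3.08% lower in E8 KO at D15. Of 9 PBX, MEIS and PKNOX cofactors, 5 were called lower in Tsix-stop KO at D15 and none higher. Meis2 was at 11.1 and 10.1 TPM in wt and at 0.597 and 1.06 TPM in KO (-3.68 ± 0.25), and Meis1 at 6.13 and 5.09 against 0.840 and 2.11 TPM (-1.94 ± 0.44). The D15 library labelled CRISPR control had Meis2 at 2.79 and Meis1 at 3.52 TPM, each between wt and KO. In E8 the same list had 4 called higher at D7 and 2 at D15, and none lower. Meis3 was at 3.70 and 3.87 TPM in E8 wt and 30.2 and 32.1 TPM in KO at D7.

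Retinoic acid genes were lower in Tsix-stop KO at D15 for 5 of 11 tested and higher for none. Rarb, a receptor that is itself a target of retinoic acid, was at 9.74 and 9.43 TPM in wt and at 0.399 and 0.456 TPM in KO (-4.48 ± 0.34). Crabp2, which carries retinoic acid to the nucleus, was at 63.9 and 66 against 5.25 and 13 TPM (-2.85 ± 0.39). Rarb and Crabp2 were at 1.16 and 25.9 TPM in the D15 library labelled CRISPR control, also between wt and KO. In E8 at D15, 2 of 9 were called higher and 1 lower. Of the axial progenitor genes 2 of 5 tested were lower in Tsix-stop KO at D15, T, the gene of brachyury (13 and 13.3 against 1.43 and 6.71 TPM), and Fgf8 (26.7 and 28.1 against 0.801 and 10.4 TPM). In the D15 library labelled CRISPR control, where the Hox sum was below wt, T and Fgf8 were above wt, at 94.2 and 92.0 TPM. In E8 KO at D15 all 5 tested were higher, T among them at 66.2 and 67.3 TPM against 2.23 and 3.0 TPM in wt.

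Of 13 chromatin regulators of the clusters (Polycomb and Trithorax group genes and the H3K27 demethylases), 1 was called in Tsix-stop at D15. It was Kdm6b, the other H3K27 demethylase gene, at 100.7 and 103 TPM in wt and at 50.2 and 40.1 TPM in KO (-1.17 ± 0.14). Kdm6b was at 59.2 TPM in the D15 library labelled CRISPR control, between wt and KO. A share of 1 in 13 is near that of all genes. At D0 none of the 13 was called. Of the genes that flank the clusters, 1 of 8 tested was lower at D15, again near the share of all genes, Evx1, a homeobox gene at the posterior end of Hoxa, with 11.1 and 9.97 TPM in wt and 0.332 and 1.06 TPM in KO. Evx1 was at 2.69 TPM in the D15 library labelled CRISPR control. The other 7, which include Skap2 and Hibadh next to Hoxa, were not called. Among noncoding transcripts of the clusters Hoxa11os, antisense to Hoxa11 and named after its values were seen, was higher in KO at D0 (3.74 ± 0.83) and lower at D15 (-5.80 ± 0.72), the same directions as Hoxa10. Halr1, a noncoding gene next to the Hoxa cluster and the other transcript tested, was higher in KO at D15 (2.60 ± 0.51) and lower in E8 KO at D7 and D15 (-1.57 ± 0.09 and -2.17 ± 0.09), against the direction of most Hox genes. Hotairm1, a noncoding gene of the Hoxa cluster, was higher in E8 KO at both days (1.64 ± 0.25 and 1.04 ± 0.25). Strand use in the counting is not given in the sources used here, and 18 of the 39 Hox genes overlap another annotated gene, so reads of Hoxa11 and Hoxa11os, or of Hoxa3 and the genes within its span, cannot be told apart.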

How the data were processed

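For Tsix-stop cells the authors deposited estimated counts per gene, not normalised: a count on the pseudo-129 genome, one on the cast genome, and reads with a strain-129 or a cast base. The count on the pseudo-129 genome was rounded and used as the diploid count. The strain-129 reads were checked on the X chromosome, where their median share was 31.3% and 33.4% in wt at D15 and 48.8% and 49.6% at D0. For E8 cells the authors deposited TPM only, with the same total in each column, so depth is unknown there. Rows of 537 repeated symbols were added up. The methods name TopHat and bowtie2 with unique reads for alleles, on mm10; per the submitters' processing notes the tools were TopHat2 2.1.1 and Bowtie2 2.4.5. The annotation, the counter and its strand setting are not given in the sources used here.

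TPM of Tsix-stop genes was computed from the counts and exon lengths of GENCODE vM21 (23967 of 24346 symbols matched). The 8 wt and KO libraries of each line were fitted together by group: Tsix-stop with edgeR 4.0.16 (TMM factors 0.934 to 1.07, quasi-likelihood test, biological coefficient of variation 0.158) in R 4.3.3, over genes at 2.5 CPM in at least 2 libraries, and E8 with limma 3.58.1 (trend) on log2(TPM + 1), over genes at 2.5 TPM in at least 2. A gene was called at a Benjamini-Hochberg adjusted p of at most 0.1 over all genes tested and a 2-fold change. Both fits were tested on simulated data. Bounds set a group at 3 counts per library. Libraries labelled CRISPR control entered only as alternatives. DESeq2 1.42.0 was an alternative.

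Genes named with values in every library were the highest of each cluster and position class in either line, those called at D0 and those called in opposite directions; from each list, up to 4 genes called at D15 in Tsix-stop with at least 5 TPM were eligible. Other Hox genes are named freely, and results of some genes are not reported here. The Hox genes, the lists and these rules were chosen with earlier results of these data known. Replicate numbers were not taken as pairs, since the labels give no pairing: correlations of replicate differences between groups ran from -0.21 to 0.23, the highest between KO at D0 and D15.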

Additional observations from a re-analysis of the deposited data

Results flagged for a closer look

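The effect of KO differed between days in Tsix-stop cells by the edgeR interaction test for 6 Hox genes, on the log2 scale: Hoxa10 by -7.43, Hoxd11 by -4.40, Hoxb3 by -3.62, Hoxb4 by -2.96, Hoxd13 by -2.78 and Hoxb9 by -1.40 at D15 relative to D0. All but Hoxb9 passed the filter on low counts only through the wt D15 libraries, which favours an interaction below 0. In E8 the limma interaction test gave the same kind of difference for Hoxd9, by 1.24 at D15 relative to D7 on the log2(TPM + 1) scale. Hoxd9 passed the filter only through the KO D15 libraries, which favours this sign. Between lines, 31 Hox genes were lower in both Tsix-stop KO libraries and higher in both E8 KO libraries than in wt at D15, a difference that was not tested.

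The libraries labelled CRISPR control, outside the main tests, had 22 Hox genes at least 2-fold above the wt mean at D0 and 1 at D15, with 1 library per day. The allele columns held a further signal: over 78 genes within 15 Mb of the Hoxa cluster, the median share of strain-129 reads was 99.8% and 99.9% in the KO libraries at D0 and 100% in both at D15, above the 55.05% to 63.7% of wt.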

How the results depend on the processing

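The number of Hox genes called depends first on the filter, since most of them are low. In Tsix-stop cells the main counts of 1 (KO against wt at D0), 7 (at D15), 6 (wt, D15 against D0), 6 (KO, D15 against D0) and 6 (interaction) became 8, 29, 27, 22 and 24 with no filter, 6, 26, 26, 21 and 21 with 10 counts in at least 2 libraries (chosen after seeing the data), and 0, 0, 1, 1 and 1 with 2.5 CPM in at least 4 libraries, where few Hox genes are left to test. With the libraries labelled CRISPR control added to wt the counts of KO against wt were 0 at D0, 2 at D15 and 0 for the interaction, and with them in place of wt (chosen after seeing the data, the lone control library assumed to vary like the other groups) 0 and 0. Fitting only the 4 libraries of D0 gave 0 at D0. Leaving out 1 library at a time gave 0 to 3 at D0, 2 to 7 at D15, 2 to 7 for wt over time, 4 to 7 for KO over time and 2 to 7 for the interaction.

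In E8 the main counts of 4 (D7), 2 (D15), 0 (wt over time), 1 (KO over time) and 1 (interaction) became 18, 24, 9, 18 and 14 with 0.5 TPM in at least 2 libraries and log2(TPM + 0.1). With log2(TPM + 0.1) alone 4, 1, 2 and 2 were called at D15, in wt, in KO and for the interaction, with no filter or with 1 TPM in at least 2 libraries 9, 5 and 5 at D15, in KO and for the interaction, and with no minimum fold 4, 4, 3 and 2 at D15, in wt, in KO and for the interaction. Fitting only the 4 libraries of D7 gave 1 at D7. Leaving out 1 library gave 2 to 4 at D7, 0 to 2 at D15, 0 in wt, and 0 to 1 in KO and for the interaction, the low values without a KO D15 library, as fewer Hox genes then passed the filter.

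A paired analysis with the replicate number as a block gave 1, 7, 6, 6 and 6 calls in Tsix-stop and 4, 2, 0, 1 and 1 in E8, as without it, and so did a crossed pairing with the wt D15 numbers swapped; the numbers pair no libraries in the labels.

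At D0 the log2 changes of genes that did not pass turned with single libraries: leaving out 1 library at a time they ran from -0.99 to 0.96 for Hoxb3 (without the first KO and the second wt D0 library), -0.53 to 0.42 for Hoxb4 (the second KO and the first wt), -0.18 to 0.036 for Hoxb9 (the first wt and the second KO) and -0.19 to 0.50 for Hoxc13 (the second and the first wt). With CRISPR control added to wt the D0 changes were -0.24 for Hoxa10, which was otherwise called higher, 0.24 for Hoxb3, -0.41 for Hoxb9, -0.017 for Hoxc13 and -0.52 for Hoxd13, and in place of wt -1.68 for Hoxa10, -0.99 for Hoxb9, -0.26 for Hoxc13 and -1.73 for Hoxd13 at D0, and 0.93 for Hoxb9 at D15. The cause of these turns was not tested.

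The mean strain-129 share at D15 was 56.2% (wt) and 100% (KO) over Hoxa genes, and 63.4% and 99.98% over genes within 15 Mb (a window chosen after seeing the data). For Hoxb it was 53.8% in wt, and 45.7% in the window. For Hoxc it was 71.3% in wt, and 52.2% in the window. For Hoxd it was 48.8% in wt and 34.7% in KO, 73.7% and 73.3% with at least 5 reads in every library, and 51.2% in the KO window. With 1 library left out the shares ran from 53.2% to 59.1% (Hoxa, wt), 50% to 57.7% (Hoxb, wt), 52.4% to 81.3% (Hoxb, KO), 65.6% to 76.9% (Hoxc, wt), 30% to 53.8% (Hoxc, KO), 45.9% to 51.8% (Hoxd, wt) and 27.9% to 41.5% (Hoxd, KO).

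DESeq2's size factors and its Wald test and the count on the cast genome left every count within 1.5 times the main one. Many Hox genes have under 10 counts per library, which limits the precision of their values, and E8 has no known depth.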
